A study of Mus musculus with 15 samples.

Results

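A set of 10 Wnt modulators, genes that tune Wnt signalling or report on it, was followed in mouse choroid plexus and its tumours: the R-spondins Rspo1, Rspo2 and Rspo3, the ligand Wnt5a, the Dickkopf genes Dkk2 and Dkk3, the secreted Frizzled-related genes Sfrp1 and Sfrp2, and the pathway's feedback and effector genes Axin2 and Lef1. They were taken as a list of names. All 10 had a probe set paired with exactly 1 gene symbol, among 22180 such genes in all, and each gene was read from its brightest probe set on average. The study profiled 5 choroid plexus carcinomas, 5 choroid plexus papillomas and 5 samples of normal choroid plexus by microarray, each sample from total RNA of snap-frozen tissue. Carcinomas came from mice labelled Atoh1-Cre; Myc/Myc; p53fl/fl, papillomas from mice labelled Atoh1-Cre; Myc/Myc, and normal tissue from mice labelled Myc/Myc; p53fl/fl. All mice were of a mixed C57Bl/6 and 129 background, and their ages are not given in the sources used here. Cre is driven by Atoh1 regulatory sequence, and the tumours were measured as bulk tissue that also holds cells outside that lineage. Normal tissue carried the floxed p53 alleles without Cre and the papilloma label names no p53 allele, so papilloma and normal tissue differ in that label as well as in Cre. Tumours were collected when mice showed signs of disease such as weight loss, ataxia or hydrocephalus.

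Wnt ligands are secreted proteins that bind Frizzled receptors with the co-receptors Lrp5 and Lrp6, and in the canonical branch this spares β-catenin from destruction so that it can act with Tcf and Lef factors in the nucleus. R-spondins bind Lgr receptors and the membrane ligases Rnf43 and Znrf3, which otherwise remove Frizzled from the cell surface, and so make cells more responsive to Wnt. Dickkopf proteins of the classical kind block the Lrp co-receptors, and Sfrp proteins carry a Frizzled-like domain that binds Wnt ligands. The choroid plexus, which makes cerebrospinal fluid, forms along the dorsal midline of the brain, where Wnt ligands are made during development.

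The label of each tissue was checked first. Of 13 markers of choroid plexus epithelium, 9 had a usable probe set, none of these lay below the array median in every array of a group, and their mean per array was 12.19 to 12.49 in carcinoma, 12.31 to 12.54 in papilloma and 12.71 to 12.78 in normal tissue (log2 RMA values, a log2 scale of array brightness on which 1 unit is a doubling). Myc was higher in carcinoma by 0.80 (standard error, SE, 0.14, adjusted p = 0.000166) and in papilloma by 0.60 (SE 0.14, adjusted p = 0.00228) than in normal tissue. Each tumour array had either Xist, the X-inactivation transcript, or Y-linked transcripts at high level, whereas normal arrays 2 to 5 had both (Xist 10.69 to 12.48, mean of Uty, Eif2s3y and Kdm5d 7.72 to 9.74). The labels do not say whether a normal sample holds tissue of 1 mouse or of several. The mean of the neuron markers was 6.87 to 7.62 in carcinoma and 7.96 to 8.50 in normal tissue. Papilloma arrays 2 and 4, with means of 9.54 and 8.64, stood apart from the other papillomas, with 6.95 to 7.24. With those 2 arrays left out, an alternative chosen after seeing the data, 5 members were called in carcinoma against normal tissue, 6 in papilloma against normal tissue and 0 in carcinoma against papilloma. Over all genes the same fit called 38%, 30.3% and 7.16% in these comparisons. The labels give no batch.

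Of the 10 genes, 6 differed between carcinoma and normal tissue, 3 higher and 3 lower, and 6 between papilloma and normal tissue, also 3 higher and 3 lower. In both tumour types Rspo3 and Axin2 fell and Wnt5a and Dkk3 rose. Beyond these, Sfrp2 rose and Sfrp1 fell in carcinoma, and Rspo2 rose and Lef1 fell in papilloma. Carcinoma differed from papilloma in 2 genes, with Sfrp2 higher and Dkk3 lower in carcinoma. A gene counts as risen or fallen where the adjusted p of limma's test, over all 22180 genes, was below 0.05. Changes were common among all genes: by the same rule 37.9% of genes were called in carcinoma against normal tissue (18.7% higher and 19.2% lower), 33.2% in papilloma against normal tissue (17% higher and 16.3% lower) and 11.4% in carcinoma against papilloma (6.24% higher and 5.17% lower). Complete separation of the arrays compared was seen for 5, 5 and 2 of the 10 members in these comparisons, while over all genes this held for 29.9%, 32.1% and 7.9%. The median log2 difference of the 10 members was 0.03, 0.00 and -0.12 in the same order, and over all genes it was -0.022, 0.011 and -0.025. The 2 comparisons with normal tissue share the normal arrays, so their values are given side by side and were not counted as separate support for each other.

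**Figure D1:**
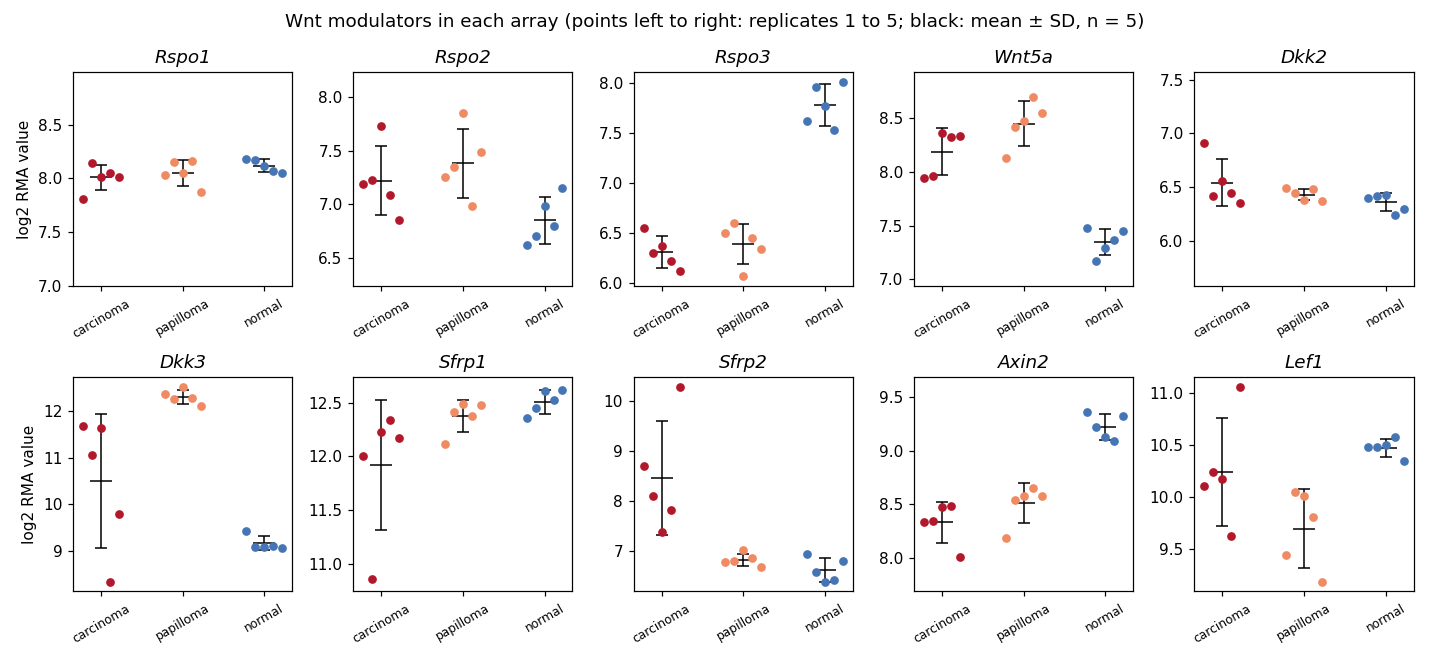
Log2 RMA value (vertical axis, a separate range per gene) of the 10 Wnt modulators in carcinoma, papilloma and normal arrays, with 1 point per array and the mean ± SD of 5 arrays in black. Rspo3 and Axin2 sit lower in every tumour array than in any normal array, Wnt5a sits higher, and the carcinoma points of Dkk3 and Sfrp2 spread over 3.34 and 2.92 log2 units.

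The R-spondins went different ways. Rspo3, a secreted R-spondin on chromosome 10, measured 6.55, 6.30, 6.37, 6.22 and 6.12 in carcinoma replicates 1 to 5, 6.50, 6.60, 6.07, 6.45 and 6.34 in papilloma and 7.62, 7.96, 7.77, 7.53 and 8.01 in normal tissue. All 10 tumour values lay below all 5 normal values, and also below the median of their own array. The difference was -1.46 in carcinoma against normal tissue (SE 0.12, 95% interval -1.72 to -1.21, 2.76-fold, adjusted p = 7.96e-08) and -1.38 in papilloma against normal tissue (SE 0.12, interval -1.63 to -1.13, 2.61-fold, adjusted p = 1.72e-07). A change at least as large was found in 4.29% and 3.95% of all genes in these comparisons. Carcinoma and papilloma differed by -0.08 (interval -0.33 to 0.17, adjusted p = 0.736). The order from low to high was carcinoma, papilloma and normal tissue, and the tumour types did not differ beyond their spread.

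Rspo2, on chromosome 15, measured 7.19, 7.23, 7.73, 7.09 and 6.85 in carcinoma, 7.25, 7.35, 7.85, 6.98 and 7.49 in papilloma and 6.62, 6.70, 6.98, 6.80 and 7.15 in normal tissue. Only 2 of 5 normal values lay above their array median, so differences from normal tissue are set against dim values. Both tumour groups overlapped with normal tissue, and the highest value of each tumour group was its replicate 3. It rose in papilloma by 0.53 (SE 0.17, interval 0.17 to 0.89, adjusted p = 0.0223), but leaving out normal array 1, normal array 2 or papilloma array 3 ended the call (0.42 to 0.50, adjusted p = 0.0544 to 0.0656). In carcinoma the difference was 0.37 (SE 0.17, interval 0.01 to 0.73, adjusted p = 0.103), which became 0.46 without carcinoma array 5 (adjusted p = 0.0447) and 0.24 without carcinoma array 3 (adjusted p = 0.261). Carcinoma and papilloma differed by -0.16 (interval -0.52 to 0.19, adjusted p = 0.61).

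Rspo1, on chromosome 4, was the R-spondin with the narrowest range of values. It measured 7.81 to 8.14 in carcinoma (median 8.01), 7.87 to 8.16 in papilloma (median 8.05) and 8.05 to 8.18 in normal tissue (median 8.12). The groups overlapped and no comparison passed the test, with differences of -0.12 (interval -0.27 to 0.04, adjusted p = 0.262) for carcinoma against normal tissue, -0.07 (interval -0.23 to 0.09, adjusted p = 0.569) for papilloma against normal tissue and -0.05 (interval -0.21 to 0.11, adjusted p = 0.757) for carcinoma against papilloma.

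Wnt5a, a ligand known mainly for signalling that does not run through β-catenin, lies on chromosome 14. It measured 7.94, 7.96, 8.36, 8.33 and 8.34 in carcinoma, 8.13, 8.42, 8.48, 8.70 and 8.55 in papilloma and 7.48, 7.17, 7.29, 7.37 and 7.45 in normal tissue. Every tumour array was above every normal array, and the ranges of the tumour types overlapped. It rose by 0.83 in carcinoma (SE 0.12, interval 0.59 to 1.08, 1.78-fold, adjusted p = 2.58e-05) and by 1.10 in papilloma (SE 0.12, interval 0.86 to 1.35, 2.15-fold, adjusted p = 1.67e-06). The order from low to high was normal tissue, carcinoma and papilloma, and carcinoma differed from papilloma by -0.27 (interval -0.52 to -0.02, adjusted p = 0.163), which did not pass the test over all genes.

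Of the antagonists, Dkk3 showed the largest change. Dkk3 is a divergent Dickkopf protein, and unlike its relatives it is not an established blocker of Lrp co-receptors. Its probe set, on chromosome 7, measured 11.68, 11.06, 11.63, 8.34 and 9.79 in carcinoma, 12.36, 12.27, 12.52, 12.28 and 12.11 in papilloma and 9.42, 9.09, 9.09, 9.10 and 9.07 in normal tissue. Papillomas formed a tight high group, whereas carcinomas fell into 3 high arrays, 1 between and 1, replicate 4, below every normal array. It rose in papilloma by 3.15 (SE 0.47, interval 2.15 to 4.15, 8.89-fold, adjusted p = 6.21e-05), and a change of that size was found in 0.428% of genes. In carcinoma it rose by 1.35 against normal tissue (SE 0.47, interval 0.35 to 2.34, 2.54-fold, adjusted p = 0.0327), with overlap of the groups. That call ended when only those groups were fitted (adjusted p = 0.0739) and without any 1 of normal arrays 2 to 5 or carcinoma arrays 1 to 3 (1.05 to 1.33, adjusted p = 0.0585 to 0.0927). Without carcinoma array 4, the low one, the difference was 1.89.

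Against papilloma, Dkk3 was lower in carcinoma by 1.81 on the log2 scale (-1.81, SE 0.47, interval -2.80 to -0.81, 3.5-fold, adjusted p = 0.0204), and all 5 carcinoma values lay below all 5 papilloma values. The call ended when only the carcinoma and papilloma arrays were fitted (adjusted p = 0.0822) and without papilloma arrays 2 and 4 (adjusted p = 0.0745). The SD over the 5 carcinomas was 1.43 for Dkk3, against 0.15 in papilloma and 0.15 in normal tissue, and 0.221% of all genes had an SD as large among the carcinomas. Whether normal samples pool several mice, which would bear on their SD, is not stated in the labels. The pooled variance of the 3 groups overstates the spread of papilloma and normal arrays for this gene and understates that of carcinoma arrays. Its intervals and p-values for the comparisons with carcinoma are therefore too favourable.

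Sfrp2, a secreted Frizzled-related protein on chromosome 3, was higher in carcinoma. It measured 8.71, 8.09, 7.37, 7.81 and 10.29 in carcinoma, 6.77, 6.80, 7.01, 6.85 and 6.67 in papilloma and 6.94, 6.58, 6.38, 6.41 and 6.79 in normal tissue. Every carcinoma array stood above every papilloma and normal array, and replicate 5 stood highest. Only 2 of 5 papilloma values and 1 of 5 normal values lay above their array median, so the folds are set against dim values. The rise was 1.84 against normal tissue (SE 0.38, interval 1.03 to 2.65, 3.57-fold, adjusted p = 0.00103) and 1.64 against papilloma (SE 0.38, interval 0.83 to 2.45, 3.11-fold, adjusted p = 0.0107). Papilloma differed from normal tissue by 0.20 (interval -0.61 to 1.01, adjusted p = 0.756). The call against papilloma ended when only the carcinoma and papilloma arrays were fitted (adjusted p = 0.052) and without papilloma arrays 2 and 4 (adjusted p = 0.0508).

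A second, dimmer probe set of Sfrp2 measured 6.56, 6.72, 6.50, 6.56 and 7.03 in carcinoma, 6.15, 6.12, 6.38, 6.37 and 6.34 in papilloma and 6.55, 6.34, 6.50, 6.77 and 6.51 in normal tissue. Its highest array was also carcinoma replicate 5, but carcinoma and normal tissue overlapped. Over all probe sets its difference was 0.14 in carcinoma against normal tissue (adjusted p = 0.397) and 0.40 in carcinoma against papilloma (adjusted p = 0.0404), so the probe sets disagree on the first comparison. With the mean of both probe sets the rise of Sfrp2 in carcinoma was 0.99 against normal tissue (adjusted p = 0.00232) and 1.02 against papilloma (adjusted p = 0.0081).

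Sfrp1, on chromosome 8, measured 12, 10.86, 12.23, 12.34 and 12.17 in carcinoma, 12.12, 12.41, 12.49, 12.38 and 12.48 in papilloma and 12.36, 12.45, 12.61, 12.53 and 12.62 in normal tissue. The carcinomas lay below the normal arrays, replicate 2 by far the most. It fell in carcinoma by 0.59 on the log2 scale (-0.59, SE 0.21, interval -1.04 to -0.15, 1.51-fold, adjusted p = 0.0355). Without carcinoma array 2 the difference was -0.33 (adjusted p = 0.0126). Leaving out carcinoma array 1 or any 1 of normal arrays 2 to 5 ended the call (-0.61 to -0.56, adjusted p = 0.0514 to 0.0715). It also ended when only those groups were fitted (adjusted p = 0.0728), at a common median (adjusted p = 0.0535), on all probe sets (adjusted p = 0.0507), without papilloma arrays 2 and 4 (adjusted p = 0.0513), and with chromosome-wide shifts removed (-0.48, adjusted p = 0.104). The median difference of all chromosome 8 genes from the mean of the normal arrays was -0.113 in carcinoma and 0.033 in papilloma (medians over the 5 arrays). Papilloma differed from normal tissue by -0.14 (interval -0.58 to 0.31, adjusted p = 0.69), and carcinoma from papilloma by -0.46 (interval -0.90 to -0.01, adjusted p = 0.194). Without carcinoma array 2 the difference from papilloma was -0.19 (adjusted p = 0.245).

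Dkk2, a Dickkopf protein of the classical family on chromosome 3, was dim. It measured 6.35 to 6.91 in carcinoma (median 6.44), 6.37 to 6.49 in papilloma (median 6.44) and 6.24 to 6.43 in normal tissue (median 6.40), and only 1 of the 15 values, carcinoma replicate 1, was above its array's median. Differences were 0.18 (interval -0.02 to 0.37, adjusted p = 0.146) for carcinoma against normal tissue, 0.07 (interval -0.12 to 0.27, adjusted p = 0.61) for papilloma against normal tissue and 0.10 (interval -0.09 to 0.30, adjusted p = 0.537) for carcinoma against papilloma. The first of these became 0.30 with array quality weights (adjusted p = 0.0147) and 0.09 without carcinoma array 1 (adjusted p = 0.382).

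Axin2 is a scaffold of the complex that destroys β-catenin and is itself switched on by β-catenin, so it is widely read as a feedback target. Lef1 is a DNA-binding partner of β-catenin. As both are target genes and both fell in papilloma, the 250 bases before their annotated starts are shown, from RefSeq promoter sequences of build GRCm38.p6, plus strand, 5′ to 3′, at chr11:108920099-108920348 for Axin2 and chr3:131110047-131110296 for the first listed of the Lef1 starts. Capitals mark matches to the 5 bases CTTTG that Tcf and Lef sites share, on either strand.
Axin2: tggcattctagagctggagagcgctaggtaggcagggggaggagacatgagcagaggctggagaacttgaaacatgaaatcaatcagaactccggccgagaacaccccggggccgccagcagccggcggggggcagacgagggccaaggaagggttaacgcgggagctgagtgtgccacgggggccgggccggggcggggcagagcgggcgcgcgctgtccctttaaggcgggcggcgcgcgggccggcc
Lef1: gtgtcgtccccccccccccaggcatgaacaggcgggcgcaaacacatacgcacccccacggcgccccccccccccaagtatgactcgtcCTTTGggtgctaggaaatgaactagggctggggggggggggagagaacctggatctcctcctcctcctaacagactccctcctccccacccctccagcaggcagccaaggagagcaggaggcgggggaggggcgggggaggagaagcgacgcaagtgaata
The full sites CTTTGAT and CTTTGTT were searched on both strands in the windows of 250 bases before to 50 after the start, which RefSeq's table held for 5 of the 10 members (Rspo1, Dkk2, Sfrp2, Axin2 and Lef1, 8 windows in all). None of the 8 windows held either site, while 3.73% and 5.85% of all 32851 windows did. No match says only that these letters are not in these windows.

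Axin2, on chromosome 11, measured 8.33, 8.34, 8.47, 8.48 and 8.01 in carcinoma, 8.18, 8.54, 8.58, 8.65 and 8.58 in papilloma and 9.36, 9.22, 9.13, 9.09 and 9.32 in normal tissue. All tumour values were below all normal values. It fell by 0.90 on the log2 scale in carcinoma (-0.90, SE 0.11, interval -1.12 to -0.67, 1.86-fold, adjusted p = 4.69e-06) and by 0.72 in papilloma (-0.72, SE 0.11, interval -0.94 to -0.49, 1.64-fold, adjusted p = 5.73e-05). The dimmer probe set of Axin2 moved the same way, with -0.35 in carcinoma (adjusted p = 0.000767) and -0.27 in papilloma (adjusted p = 0.00714) when all probe sets were tested. Carcinoma and papilloma differed by -0.18 (interval -0.41 to 0.04, adjusted p = 0.326), so the order from low to high was carcinoma, papilloma and normal tissue with no difference between the tumour types beyond their spread.

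Lef1, on chromosome 3, measured 10.10, 10.24, 10.17, 9.62 and 11.06 in carcinoma, 9.44, 10.05, 10.01, 9.80 and 9.18 in papilloma and 10.48, 10.48, 10.50, 10.58 and 10.34 in normal tissue. Papillomas lay below every normal array, whereas carcinoma values lay on both sides, with replicate 5 above all normal arrays and the other 4 below them. It fell in papilloma by 0.78 on the log2 scale (-0.78, SE 0.21, interval -1.24 to -0.32, 1.72-fold, adjusted p = 0.00949). In carcinoma the difference was -0.24 (interval -0.69 to 0.22, adjusted p = 0.437), and 1 array moved it either way, to -0.44 without carcinoma array 5 (adjusted p = 0.0551) and to -0.08 without carcinoma array 4 (adjusted p = 0.79). Carcinoma and papilloma differed by 0.54 (interval 0.09 to 1.0, adjusted p = 0.123), by 0.70 without carcinoma array 4 (adjusted p = 0.0318) and by 0.34 without carcinoma array 5 (adjusted p = 0.241).

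**Figure D2:**
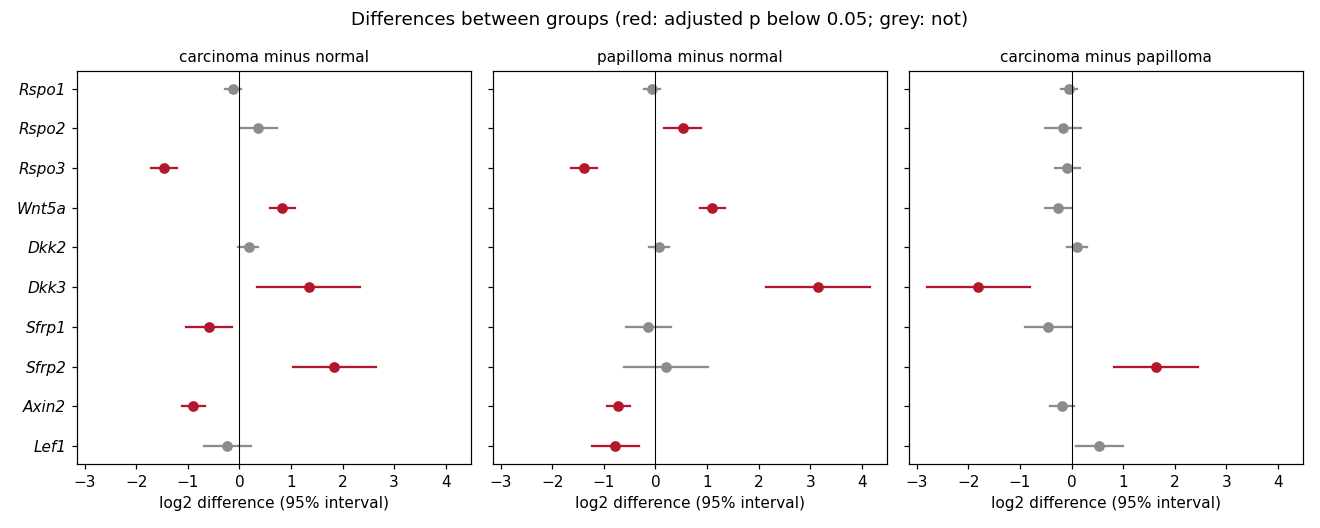
Log2 difference (horizontal axis) of each modulator with its 95% interval, not adjusted for multiple tests, in panels for carcinoma minus normal tissue, papilloma minus normal tissue, and carcinoma minus papilloma. Red marks adjusted p below 0.05 over all genes, which holds for 6, 6 and 2 of the 10 genes, and the widest intervals belong to Dkk3 and Sfrp2.

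For Dkk2, Dkk3, Sfrp1, Sfrp2 and Lef1 the SD was larger among carcinomas than in the other groups. For Wnt5a this held by little (0.22 in carcinoma, 0.21 in papilloma and 0.12 in normal tissue). The pooled variance thus understates the carcinoma spread for Dkk2, Dkk3, Sfrp1, Sfrp2 and Lef1. Different carcinomas stood out for different genes. Carcinoma replicate 5 had the highest Sfrp2 (10.29) and Lef1 (11.06) and the lowest Axin2 (8.01), Rspo2 (6.85) and Rspo3 (6.12) of the 5. Replicate 4 had the lowest Dkk3 (8.34) and Lef1 (9.62) with the highest Sfrp1 (12.34), replicate 2 the lowest Sfrp1 (10.86), and replicate 1 the highest Dkk3 (11.68). The SD among carcinomas was 1.14 for Sfrp2, 0.61 for Sfrp1 and 0.52 for Lef1, and SDs at least that large were found in 0.618%, 4.17% and 6.28% of genes, while for Rspo1 (0.12) and Rspo3 (0.16) these shares were 77.9% and 60.3%.

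Markers of several other cell types moved with these groups, and in bulk tissue fewer cells of a type and less RNA per cell cannot be told apart. The counts of markers stand beside 37.9% of all genes called in carcinoma and 33.2% in papilloma, against normal tissue. Macrophage markers had the fewest calls, in 10% of cases in carcinoma and 0% in papilloma. Neuron markers were called in 30% and 10%, all of them lower, and astrocyte markers in 60% and 40%. Markers of choroid plexus epithelium fell in 4 of 9 cases in each tumour type and rose in 1 in carcinoma and 0 in papilloma. Their median difference was -0.51 in carcinoma and -0.29 in papilloma. Fibroblast markers fell in 4 of 10 cases and rose in 2 in carcinoma, and fell in 5 and rose in 3 in papilloma, and their mean per array was 9.28 to 9.70 in carcinoma, 9.05 to 9.43 in papilloma and 9.91 to 10.10 in normal tissue. The collagen-binding proteoglycans Lum (-3.57 in carcinoma and -3.37 in papilloma) and Dcn (-2.54 in carcinoma and -3.14 in papilloma) fell most, and Lum lay below the array median in all tumour arrays. Those that rose were Fbln1 (1.30 in carcinoma and 1.24 in papilloma), Col3a1 (0.79 in carcinoma and 1.21 in papilloma) and, in papilloma only, Postn (0.88). The median difference of the 10 fibroblast markers was -0.12 in carcinoma and -0.68 in papilloma. Meningeal markers fell in 7 of 10 cases in both tumour types and rose in 2 in carcinoma and 1 in papilloma, with means of 8.02 to 8.53 in carcinoma, 7.68 to 8.09 in papilloma and 8.71 to 8.96 in normal tissue. The largest meningeal changes were those of Slc47a1 (-2.70 in carcinoma and -2.54 in papilloma), of Crabp2, which rose by 2.10 in carcinoma, and of Foxc2 (-1.50 in papilloma). Aldh1a2, Foxd1 and Tbx18 lay below the array median in all carcinomas, Foxd1 and Tbx18 in all papillomas, and none of the list in all normal arrays. Markers of multiciliated cells fell in 6 of 9 cases and rose in 2 in each tumour type, with medians of -1.51 in carcinoma and -2.74 in papilloma. Their mean per array was 7.37 to 8.12 in carcinoma, 7.12 to 7.29 in papilloma and 9.09 to 9.32 in normal tissue. The largest falls were those of Rsph4a (-4.51 in carcinoma and -5.23 in papilloma) and Ak7 (-4.24 in carcinoma and -4.31 in papilloma). The 2 that rose were Deup1 (3.42 in carcinoma and 2.13 in papilloma) and Mcidas (0.51 in carcinoma and 0.28 in papilloma). Oligodendrocyte markers fell in 6 of 7 cases in carcinoma and 3 of 7 in papilloma, led by Cldn11 (-2.40 in carcinoma and -2.14 in papilloma), with means of 6.98 to 7.56 in carcinoma, 7.08 to 7.70 in papilloma and 7.97 to 8.25 in normal tissue. Rspo3 and Axin2 fell in the same tumours in which more choroid plexus epithelium, fibroblast, meningeal, multiciliated, oligodendrocyte and neuron markers fell than rose. The part of these lists in those falls was not tested. Cell division genes rose in 8 of 8 cases in both, with medians of 3.68 in carcinoma and 1.75 in papilloma and means of 9.74 to 10.97 in carcinoma, 8.65 to 9.12 in papilloma and 6.89 to 7.09 in normal tissue. Their part in any member's change was not tested.

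Among the 5 carcinomas, Sfrp2 and the mean of the fibroblast markers had the same order, with replicate 5 highest in both (10.29 and 9.70), then replicates 1, 2 and 4, and replicate 3 lowest (7.37 and 9.28). The fibroblast list was 1 of several marker lists that could have matched. In normal tissue the fibroblast means were higher (9.91 to 10.10), while Sfrp2 was lower (6.38 to 6.94). Against papilloma, 2 of 10 fibroblast markers rose in carcinoma and none fell, beside 6.24% of all genes higher and 5.17% lower. The median difference of the list was 0.07. The 2 that rose were the fibronectin gene Fn1 (2.05, adjusted p = 0.00126) and the collagen gene Col1a2 (1.16, adjusted p = 0.000413). Against normal tissue neither gene was called in carcinoma (0.06, adjusted p = 0.923, for Fn1 and -0.29, adjusted p = 0.203, for Col1a2). The part of fibroblasts in the Sfrp2 difference was not tested. Mural cell markers, of pericytes and smooth muscle, rose in 7 of 10 cases and fell in 1 in carcinoma and rose in 4 and fell in 3 in papilloma (means of 9.15 to 9.55 in carcinoma, 8.95 to 9.22 in papilloma and 8.60 to 8.93 in normal tissue). Endothelial markers rose in 7 of 10 cases in both tumour types and fell in 0 (means of 8.93 to 9.43, 8.70 to 9.17 and 8.12 to 8.52 in the same order), and none of either list lay below the array median throughout a group. Their part in the rises of Wnt5a and Dkk3 was not tested.

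**Figure D3:**
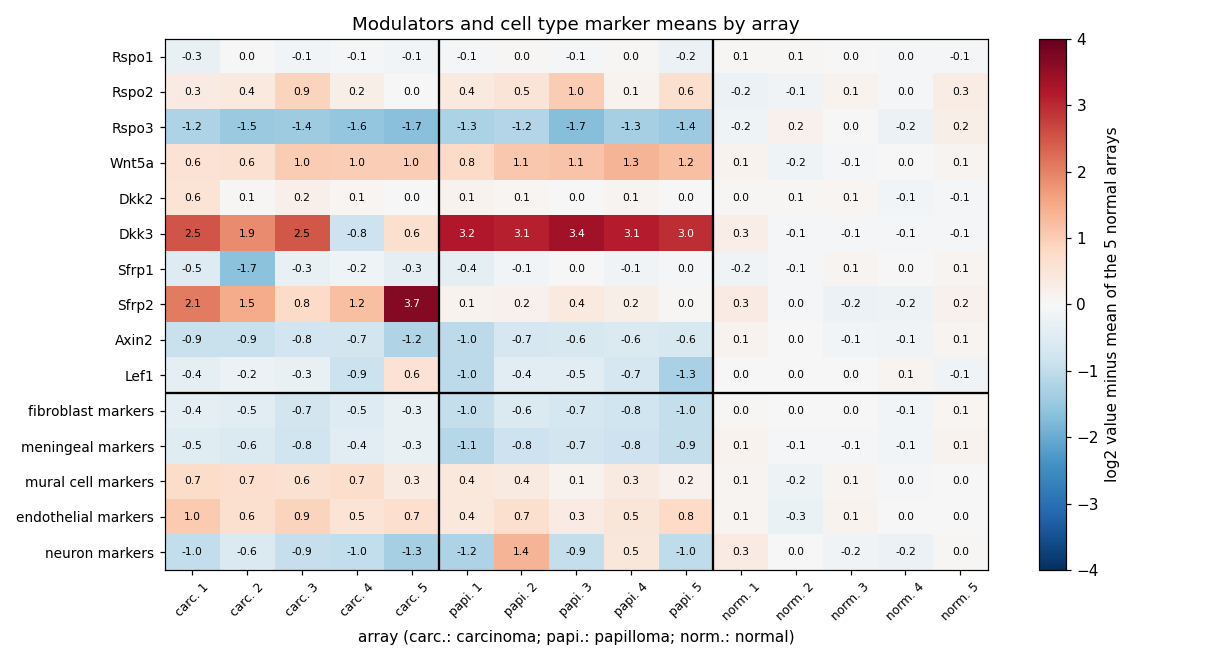
Log2 value minus the mean of the 5 normal arrays (colour and printed number) for the 10 modulators and for the means of 5 marker lists, by array, with carcinoma, papilloma and normal arrays from left to right. Dkk3 is high in every papilloma and in carcinomas 1 to 3, Sfrp2 is highest in carcinoma 5, and fibroblast and meningeal means are lower in all 10 tumours. Single genes of both of these lists went both ways.

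The remaining Wnt pathway genes, from lists by role, gave the setting of the 10. Of 89 others with a usable probe set, 13 rose and 29 fell in carcinoma against normal tissue (47.2% called, median difference -0.12). In papilloma 13 rose and 20 fell (37.1%, median -0.03), and in carcinoma against papilloma 1 rose and 5 fell (6.74%, median -0.08). These shares stand beside 37.9%, 33.2% and 11.4% of all genes.

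Among 19 secreted antagonists and their partners, members included, 3 rose and 6 fell in carcinoma and 2 rose and 5 fell in papilloma. Igfbp4, an insulin-like growth factor binding protein that can also bind Wnt receptors, averaged 8.87 ± 0.30 in carcinoma, 8.45 ± 0.08 in papilloma and 10.40 ± 0.22 in normal tissue (SD, n = 5 each), with log2 differences from normal tissue of -1.53 in carcinoma and -1.95 in papilloma (adjusted p = 1.65e-07 and 1.41e-08 by limma). The Sfrp relatives Frzb and Sfrp4 also fell, with differences of -1.17 in carcinoma and -0.97 in papilloma for Frzb and of -1.09 in carcinoma and -1.10 in papilloma for Sfrp4. Both were below the array median in every tumour array. Frzb was below it in every normal array too, so its differences lie between dim values. Sfrp4 measured 6.56 to 7.09 in normal tissue, around the array medians of 6.79 to 6.90. Sost, which encodes the Lrp blocker sclerostin, rose by 0.60 in carcinoma (adjusted p = 0.00598) and 1.12 in papilloma (adjusted p = 3.77e-05).

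On the side of ligands and their release, 1 of 21 genes rose in each tumour type, which was Wnt5a, while 8 fell in carcinoma and 5 in papilloma. Porcn, the enzyme that acylates Wnt proteins, fell in both tumour types (-0.91 in carcinoma and -0.60 in papilloma), as did Wnt2b (-0.66 in carcinoma and -0.64 in papilloma). Wls, the carrier that brings Wnt to the surface, fell in carcinoma (-0.89), with -0.36 in papilloma (adjusted p = 0.123). Of 18 receptor genes 2 rose and 8 fell in carcinoma, and 3 rose and 4 fell in papilloma. The Frizzled receptor gene Fzd4 fell in carcinoma (-0.96, adjusted p = 4.03e-05), with a difference of -0.37 in papilloma (adjusted p = 0.0539). Fzd7 fell in both, with -0.41 in carcinoma (adjusted p = 0.0109) and -0.40 in papilloma (adjusted p = 0.0144), whereas Ryk, a receptor for Wnt5a among others, rose by 0.40 in carcinoma and 0.42 in papilloma. Of the 9 R-spondins and R-spondin receptors, 2 rose and 1 fell in each. Lgr5 differed by 0.17 in papilloma (adjusted p = 0.49) and rose by 0.45 in carcinoma (adjusted p = 0.0422), a call that ended in 13 of 28 alternatives (adjusted p up to 0.123), and the ligase gene Znrf3 rose by 0.25 in carcinoma (adjusted p = 0.0333) and 0.34 in papilloma (adjusted p = 0.00585).

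Inside the cell, 6 of 28 genes rose and 8 fell in carcinoma, and 7 rose and 7 fell in papilloma. Tle1, a co-repressor that binds Tcf factors, rose by 0.96 in carcinoma and 1.07 in papilloma, and the kinase gene Csnk1e by 0.81 in carcinoma and 0.56 in papilloma. Pygo1, a co-activator of β-catenin, fell in both (-1.02 in carcinoma and -0.71 in papilloma), and so did Ctnnbip1, which binds β-catenin and keeps it from Tcf (-0.70 in carcinoma and -0.83 in papilloma). Tcf7l2 rose by 0.64 in papilloma (adjusted p = 0.000186) and was lower in carcinoma than in papilloma by 0.55 on the log2 scale (-0.55, adjusted p = 0.00326). Among 12 target genes, Axin2 and Lef1 included, 4 rose and 2 fell in carcinoma and 3 rose and 3 fell in papilloma. The cell cycle gene Ccnd1, which many other pathways also switch on, averaged 11.08 ± 0.70 in carcinoma, 9.56 ± 0.48 in papilloma and 9.02 ± 0.13 in normal tissue (SD, n = 5 each). It rose by 2.06 in carcinoma against normal tissue (adjusted p = 2.25e-05 by limma) and by 1.52 against papilloma (adjusted p = 0.00249). Tnfrsf19 fell in both (-1.26 in carcinoma and -1.41 in papilloma), and Sp5, a transcription factor gene, rose by 0.40 in carcinoma (adjusted p = 0.00551) and 0.46 in papilloma (adjusted p = 0.0025). The target genes thus went both ways within the same tumours.

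**Figure D4:**
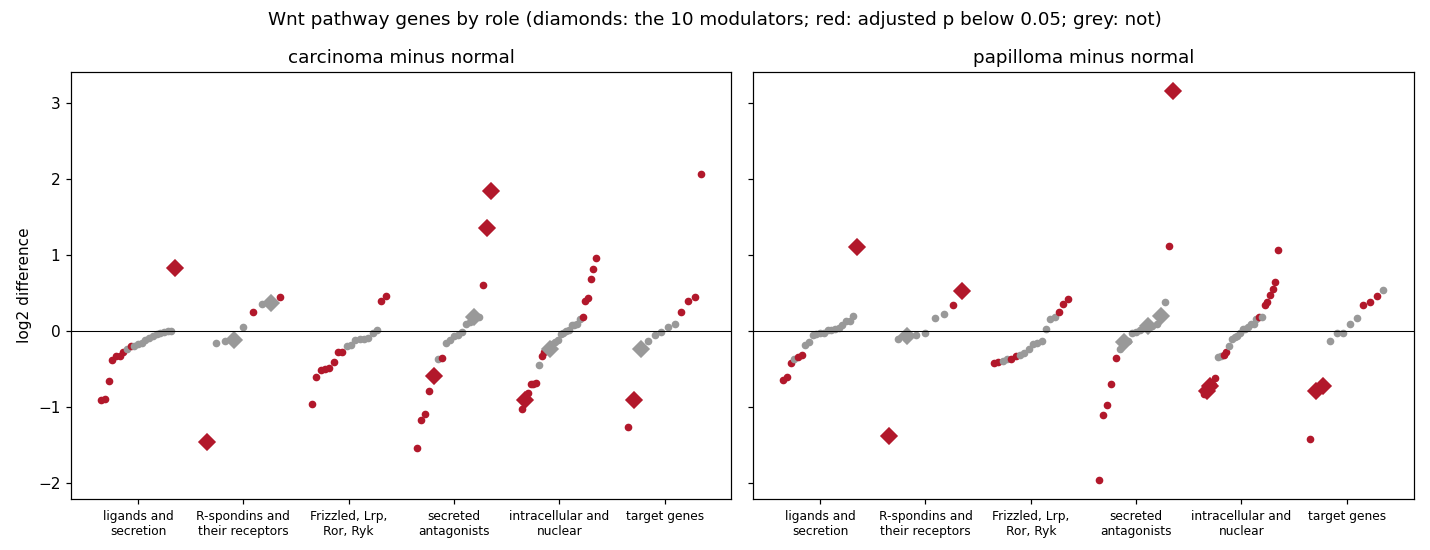
Log2 difference of each Wnt pathway gene (vertical axis), sorted within its role, for carcinoma minus normal and papilloma minus normal, with diamonds for the 10 modulators and red for adjusted p below 0.05. Genes of every role went both ways, Wnt5a is the only ligand or secretion gene called higher in either comparison, and Dkk3 in papilloma is the highest point, at 3.15.

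Of the modulators, 4 changed at least 2-fold in a comparison they passed, and for these the genes with the most similar pattern were sought among all genes, by the root-mean-square (RMS) difference over the 15 arrays after each gene was centred on its own mean. The closest to Dkk3 was Lpl, the lipoprotein lipase gene, at an RMS difference of 0.30 log2 units, where Dkk3 itself varied by an RMS of 1.49 around its mean. Lpl was higher by 1.46 in carcinoma and 3.23 in papilloma and differed by -1.77 between them. Nexmif (0.66) and Mef2c (0.68) followed. Around Rspo3, which varied by 0.69, the closest were Apoc1 (0.17), Zcwpw2 (0.19) and Traf3ip1 (0.20). Wnt5a, which varied by 0.50, was nearest to Dcaf4 (0.15), Pdcd11 (0.16) and Ydjc (0.16), and Sfrp2, which varied by 1.02, to Elobl (0.39), Creb5 (0.42) and Epha7 (0.43). These distances describe likeness over 15 arrays in 3 groups and carry no test.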

How the data were processed

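Values are the authors' deposited log2 values, 1 column per array, made with RMA in Affymetrix Expression Console per the submitters' processing notes, which give no version. RMA corrects background, forces 1 distribution on all arrays and condenses each set's probes to 1 value, so a shift shared by all genes cannot be seen. Nothing used here names the genome build of the array design. Array medians were 6.79 to 6.90. There is no read depth, and precision is limited by the number of arrays.

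Of 41345 probe sets, a pairing table gave exactly 1 symbol to 23521, several to 1814 and none to 16010, and the set with the highest mean stood for each gene. Symbols and chromosomes came from the RefSeq gene table of assembly GRCm38.p6, which matched 23328 of the 23521. Sample titles gave the groups and number the replicates as biological, but do not say that each came from a separate mouse, so p-values measure the spread between these samples.

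Limma 3.58.1 in R 4.3.3 fitted group means to all 15 arrays (12 residual and 3.35 prior degrees of freedom), without a replicate block, with two-sided p-values adjusted by Benjamini-Hochberg over 22180 genes. The 95% intervals come from the same fit. The code was tested on simulated data. The members, gene lists and tests were chosen with earlier results of these data known. Genes outside the 10 were named by size: up to 3 rises and 3 falls per pathway list among called genes whose groups did not overlap, the 2 largest called changes per marker list, a few markers below the array median throughout a group, Myc as a label check, and the 3 genes most like each member changed at least 2-fold. Fibroblast and multiciliated markers that rose against normal tissue were named as well. Alternatives were the block, a robust fit with a trend in the variance, array weights, group variances, fits on only the groups compared, quantile normalization, a common median, dim genes left out, a fit on every probe set, averaged probe sets per gene, chromosome shifts removed and each array left out, and 2 more, chosen after seeing the data, were Xist as a covariate and papilloma arrays 2 and 4 left out.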

Additional observations from a re-analysis of the deposited data

Results flagged for a closer look

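In 3 of the 30 groups of 5 arrays formed by the 10 genes and 3 tissues, 1 array lay far from the other 4 by Dixon's criterion, and chance flags about 1 group in 20. Carcinoma replicate 2 had the lowest Sfrp1, at 10.86, with the other carcinomas at 12 to 12.34. Papilloma replicate 1 had the lowest Axin2, at 8.18, with the other papillomas at 8.54 to 8.65. Normal replicate 1 had the highest Dkk3, at 9.42, with the other normal arrays at 9.07 to 9.10.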

How the results depend on the processing

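Of the 14 calls on the members, 9 kept their direction and stayed past the threshold in every alternative run, which were 28 per gene and 27 for Dkk2, whose dim probe set the filter removed. No called difference changed sign. The 5 others were Dkk3 and Sfrp1 in carcinoma against normal tissue, Rspo2 in papilloma against normal tissue, and Dkk3 and Sfrp2 in carcinoma against papilloma, whose values stand in the report. With arrays left out in turn, members called numbered 4 to 7, 5 to 6 and 2 to 3 in carcinoma against normal tissue, papilloma against normal tissue and carcinoma against papilloma. Wnt pathway genes called numbered 36 to 51, 30 to 43 and 5 to 16 of 99, with 48, 39 and 8 in the fit on all arrays. In carcinoma against papilloma, without carcinoma array 4 there were 16 and without papilloma array 3 or 5 there were 5. In that comparison, fitting only those groups gave 0 members and 2 pathway genes, leaving out papilloma arrays 2 and 4 gave 0 and 3, and leaving out dim genes gave 14 pathway genes. Over all genes the fit on only those groups called 1329 and the fit without papilloma arrays 2 and 4 called 1587, against 2530. Leaving out dim genes called 20.4% of the genes kept, against 11.4% of all genes in the main fit. With chromosome shifts removed, 5 pathway genes were higher and 5 lower, against 2 and 6. For these counts the cause was not tested. The replicate block gave 6, 6 and 2 members and 45, 35 and 7 pathway genes and ended no member's call. Deviations from group means correlated at -0.096 to 0.136 between arrays with the same number and at -0.154 to 0.173 between arrays with different numbers. The labels give these numbers no further meaning. Whether same-numbered samples share a litter, batch or day cannot be told from these values. Brightness limits Dkk2, the normal values of Rspo2, the tumour values of Rspo3 and the papilloma and normal values of Sfrp2, which lie near or below the array median.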
